A study of Mus musculus with 12 samples.

Results

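The *Hox* genes of paralog groups 6 to 8 make up the middle of the 4 mouse *Hox* clusters. The 8 genes described here were taken from a list of symbols, each matched to its NCBI gene identifier, and all 8 were found among the 45777 gene identifiers in the expression tables. Group 6 has 3 of them (*Hoxa6*, *Hoxb6*, and *Hoxc6*), group 7 has 2 (*Hoxa7* and *Hoxb7*), and group 8 has 3 (*Hoxb8*, *Hoxc8*, and *Hoxd8*), out of 39 protein-coding *Hox* genes in all. By cluster, 2 lie in HoxA on chromosome 6, 3 in HoxB on chromosome 11, 2 in HoxC on chromosome 15, and 1 in HoxD on chromosome 2.

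*Hox* genes encode homeodomain transcription factors that give cells their position along the body axis. Their order in a cluster follows the order in which they are expressed from head to tail, and genes at the same position in different clusters, the paralogs, derive from one ancestral gene and encode similar proteins. In the spinal cord, *Hoxc6* and *Hoxc8* are known for specifying motor neurons (MNs) at forelimb level. There the lateral motor column forms and *Hoxc8* instructs motor pools. *Hoxc9* is known for the thoracic cord, and *Hox* genes of group 10 for the hindlimb level.

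The RNA came from ventral spinal cord of mouse embryos at E12.5, cut from the brachial (forelimb) or the lumbar (hindlimb) cord around the GFP of an *Hb9::GFP* reporter, which labels MNs. At each level, 3 libraries came from *Isl2* +/- embryos (Het, which carry 1 mutant allele and serve as controls) and 3 from *Isl2* -/- embryos (KO), so that no library was wild type. *Isl2* encodes a LIM-homeodomain factor expressed in MNs, and the mutation is present in every cell of the embryo. The tissue was not sorted and holds the other cells of the ventral cord beside MNs. Levels are given as TPM (a StringTie measure of abundance, corrected for transcript length and the size of the library), rescaled between libraries by size factors, so that genes can be compared with each other.

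Between 4.48 and 6.64 Gb of sequence was aligned per library, and the lowest mean coverage of a member in a library was 18.9-fold, for *Hoxb8*. *Isl2* stood at 8.89 ± 0.713 TPM (SD, n = 3) in brachial Het, 5.91 ± 1.40 in brachial KO, 9.36 ± 0.937 in lumbar Het, and 7.34 ± 0.850 in lumbar KO, with every KO library below every Het library of its level. A mutant allele can still give transcripts, so that the value need not reach 0. The defining MN markers *Mnx1*, *Isl1*, and *Chat* were detected in all libraries, as were the 6 progenitor markers. Of 10 markers of mesenchyme and cartilage, 5 stayed below 0.5 TPM in every library, and of 5 muscle markers 3 did, among them *Prrx1*, *Myod1*, and *Myog*. The other markers of these lists were detected, and the lists summed to 40.9 to 65.5 TPM and 6.88 to 21.9 TPM over the 12 libraries.

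At brachial level *Hoxc8* had the highest level of the 8 genes and at lumbar level *Hoxb7* and *Hoxd8* did. In brachial libraries the mean levels ran from *Hoxc8* (156 ± 17.0 TPM, SD, n = 6) through *Hoxb7* (95.1 ± 16.7), *Hoxc6* (83.5 ± 12.8), *Hoxa6* (52.6 ± 5.18), *Hoxd8* (47.4 ± 5.57), *Hoxb6* (44.1 ± 6.38), and *Hoxa7* (32.7 ± 2.24) to *Hoxb8* (11.8 ± 2.98). In that order, *Hoxb7* and *Hoxc6* overlapped in their ranges over libraries, and so did each neighbouring pair from *Hoxa6* down to *Hoxa7*. *Hoxc8* stood clear above the rest and *Hoxb8* clear below. The place of *Hoxc6* holds on the TPM scale, and on the deposited coverage it lay below *Hoxa6* and *Hoxb6* in every library. In lumbar libraries the order was *Hoxb7* (78.1 ± 9.58 TPM), *Hoxd8* (74.0 ± 4.90), *Hoxb6* (52.4 ± 7.47), *Hoxa6* (32.8 ± 2.01), *Hoxc6* (21.8 ± 2.59), *Hoxa7* (16.9 ± 1.52), *Hoxc8* (15.6 ± 1.89), and *Hoxb8* (8.79 ± 1.69). Within lumbar Het, *Hoxb7* stood clear above *Hoxd8*, and within lumbar KO *Hoxd8* had the higher mean (75.1 against 70.9 TPM) with overlapping libraries. Over all 6 lumbar libraries *Hoxb7* overlapped with *Hoxd8*, *Hoxc6* with *Hoxa7*, and *Hoxa7* with *Hoxc8*. *Hoxc8* thus stood 1st of 8 by mean in brachial libraries and 7th in lumbar ones.

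**Figure D1:**
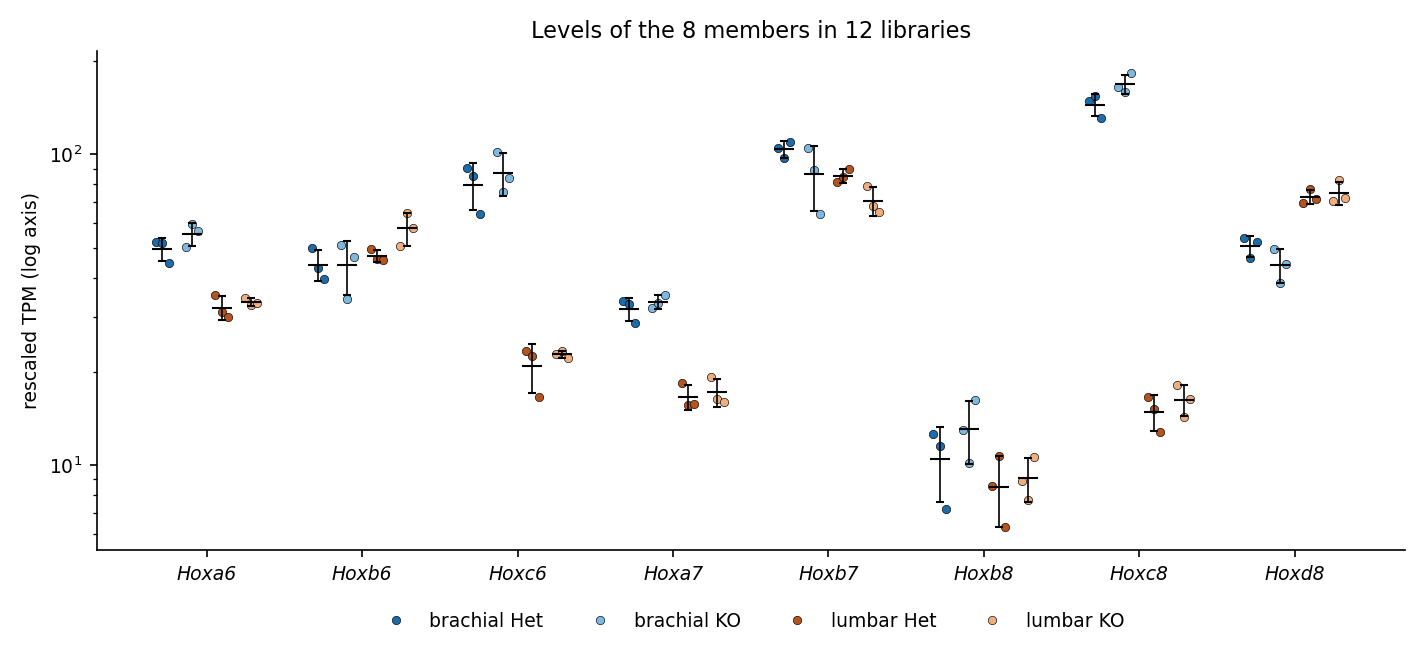
Level of each of the 8 genes (rescaled TPM, log axis) in the 12 libraries, with points for libraries, a bar for the mean, and whiskers for the SD (n = 3). *Hoxc8* and *Hoxc6* stand far lower in the lumbar libraries (orange) than in the brachial ones (blue), *Hoxd8* higher, and Het and KO lie close together.

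The level comparison addressed how the expression of these genes changed between the limb segments of the cord. The study checked the identity of the segments by their *Hox* expression, so *Hox* differences between them may not be fully independent of these labels. Lumbar libraries were set against brachial ones in all 12 libraries with genotype as a term (limma, Benjamini-Hochberg over 16698 genes). The adjusted p was under 0.05 for 5 of the 8 genes. *Hoxc8*, *Hoxc6*, *Hoxa7*, and *Hoxa6* were lower at lumbar level and *Hoxd8* was higher, whereas the 3 HoxB genes did not pass. Over all genes tested 18.5% passed, 9.62% as lower and 8.91% as higher. The median log2 difference was −0.54 over the 8 genes and 0.01 over all genes tested. The same 5 genes had no overlap between the 6 brachial and the 6 lumbar libraries, 4 of them lower and 1 higher. This held for 8.31% of all genes, 4.67% as lower and 3.65% as higher. In bulk tissue, fewer cells that express a gene and less RNA per cell cannot be told apart.

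Both HoxC genes changed most. *Hoxc8*, which sets brachial motor pools, was at 148, 154, and 131 TPM in the brachial Het libraries and at 164, 159, and 182 in the brachial KO libraries. In lumbar libraries it was at 16.6, 15.2, and 12.8 TPM in Het and at 18.2, 14.3, and 16.3 in KO. Every brachial library was thus several times above every lumbar one. The log2 difference was −3.32 ± 0.08 (SE), a 10.0-fold lower lumbar level, with an adjusted p of 1.57e-11, and the gene ranked 5th by p of the 16698 tested.

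*Hoxc6*, which acts in the lateral motor column of forelimb level, was at 90.3, 85.1, and 64.4 TPM in brachial Het and 102, 75.4, and 83.9 in brachial KO. In lumbar libraries it was at 23.4, 22.4, and 16.6 TPM in Het and 22.8, 23.3, and 22.1 in KO. The lowest brachial library was well above the highest lumbar one, and the Het library numbered 3 was the lowest of its group at both levels. The log2 difference was −1.93 ± 0.11 (adjusted p = 2.04e-07), or 3.81-fold. On the deposited coverage in place of TPM it was −1.23 (adjusted p = 0.000384).

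The pair of HoxA genes was lower by smaller steps. *Hoxa7*, known for patterning the axial skeleton, was at 33.7, 33.0, and 28.7 TPM in brachial Het and 32.0, 33.3, and 35.4 in brachial KO, against 18.3, 15.6, and 15.7 in lumbar Het and 19.2, 16.3, and 16.0 in lumbar KO. *Hoxa6* was at 52.3, 52.0, and 44.7 TPM in brachial Het and 50.4, 59.7, and 56.7 in brachial KO, against 35.3, 31.0, and 30.0 in lumbar Het and 34.5, 32.7, and 33.2 in lumbar KO. For both genes all brachial libraries were above all lumbar ones. The log2 differences were −0.95 ± 0.07 for *Hoxa7* (adjusted p = 2.4e-06, 1.94-fold) and −0.68 ± 0.06 for *Hoxa6* (adjusted p = 3.12e-05, 1.60-fold).

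*Hoxd8*, the HoxD gene of the set, went the other way. It was at 53.6, 46.2, and 52.2 TPM in brachial Het and 49.6, 38.6, and 44.4 in brachial KO. In lumbar libraries it was at 69.8, 77.5, and 71.7 TPM in Het and 70.5, 82.4, and 72.3 in KO. All lumbar libraries were above all brachial ones, with a log2 difference of 0.65 ± 0.08 (adjusted p = 0.000224), or 1.57-fold.

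The 3 HoxB genes had intervals that excluded changes of the size seen in HoxC and did not pass the adjusted threshold in this fit. *Hoxb7* and *Hoxb8* did in limma with same-numbered brachial and lumbar libraries of a genotype as a block (adjusted p = 0.0251 and 0.0192). These numbers did not pair the libraries, as 3 of the 6 pairs differed in sex. *Hoxb7* was at 105, 97.2, and 109.6 TPM in brachial Het, 105, 89.1, and 64.4 in brachial KO, 81.3, 84.8, and 89.7 in lumbar Het, and 79.3, 68.2, and 65.1 in lumbar KO. The brachial KO library numbered 3 was low within its group, and without it the log2 difference of −0.27 ± 0.10 (adjusted p = 0.0737) became −0.36 (adjusted p = 0.00489). It also passed in limma with values as deposited (adjusted p = 0.0247) and quantile normalization (0.0386). With values as deposited the median of all genes moved to −0.13, and relative to it *Hoxb7* was at −0.29, near its main value. *Hoxb6* was at 49.8, 43.0, and 39.8 TPM in brachial Het, 50.9, 34.2, and 46.8 in brachial KO, 49.6, 45.9, and 45.7 in lumbar Het, and 50.6, 64.7, and 57.9 in lumbar KO, with a log2 difference of 0.25 ± 0.11 (adjusted p = 0.119), which was 0.16 without brachial KO 2. Brachial and lumbar libraries overlapped for both genes.

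*Hoxb8*, whose loss in mice is known for excessive grooming, had the lowest level of the 8. It was at 12.6, 11.5, and 7.23 TPM in brachial Het, 12.9, 10.2, and 16.2 in brachial KO, 8.54, 10.7, and 6.30 in lumbar Het, and 8.86, 7.75, and 10.7 in lumbar KO. The levels overlapped, and the log2 difference was −0.40 ± 0.17 (adjusted p = 0.125), with a 95% interval from −0.77 to −0.03. Without the brachial Het library numbered 3, the lowest of its group, it was −0.52 (adjusted p = 0.0326).

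Each genotype on its own gave 5 of the 8 genes, over a background of 2.94% of the genes tested within Het and 1.77% within KO. The log2 differences within Het and within KO were −3.28 and −3.37 for *Hoxc8*, −1.94 and −1.92 for *Hoxc6*, −0.94 and −0.97 for *Hoxa7*, −0.63 and −0.73 for *Hoxa6*, and 0.53 and 0.77 for *Hoxd8*. These counts rest on 3 libraries against 3 and varied when single libraries were left out, from 3 to 5 within Het and from 2 to 5 within KO. They were at 3 without brachial Het 2, without lumbar Het 2, without brachial KO 2, and without lumbar KO 2, and at 2 without lumbar KO 3. The calls over all genes moved as well. Within Het they ran from 86 (without brachial Het 2) to 352 (without lumbar Het 1), against 488 with all libraries. Within KO they ran from 28 (without lumbar KO 3) to 655 (without brachial KO 1), against 298.

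Summed over the 8 genes on the TPM scale, on which the part of *Hoxc6* depends, the brachial libraries held 478 to 567 TPM and the lumbar libraries 288 to 310 TPM. The make-up of that sum changed with level. HoxC genes gave 45.8% ± 3.17 of it (SD, n = 6) at brachial level and 12.4% ± 1.21 at lumbar level. HoxB genes gave 28.8% ± 3.08 and 46.4% ± 1.41, and *Hoxd8* alone gave 9.07% ± 1.14 and 24.7% ± 1.37. The HoxA share stood at 16.3% ± 1.47 and 16.5% ± 1.0, and both its genes were lower by about as much as the sum. Taken by paralog group instead of by cluster, group 6 gave 34.3% at brachial and 35.6% at lumbar level, group 7 gave 24.5% and 31.6%, and group 8 gave 41.2% and 32.8%.

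**Figure D2:**
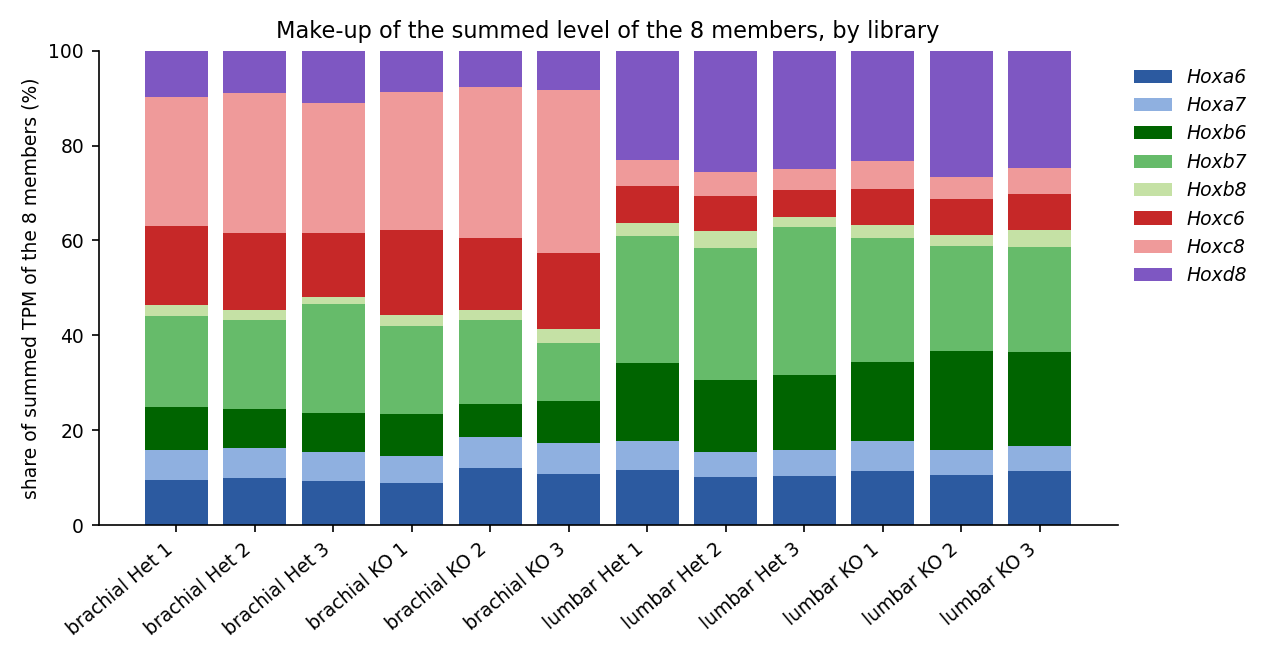
Share of the summed TPM of the 8 genes that each gene gave, in percent, 1 bar per library. The red HoxC part covers 40.9 to 50.2% in brachial libraries and 10.2 to 13.5% in lumbar ones, and the purple *Hoxd8* part 7.72 to 10.9% and 23.1 to 26.6%.

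Since the scaling between libraries cancels in a ratio within a library, paralogs of the same group were also set against each other. There are 7 such pairs, and the log2 ratio of each pair was compared between the 6 brachial and the 6 lumbar libraries with a two-sided exact permutation test over the 924 regroupings, with p-values adjusted over the 7 pairs. All 7 ratios differed between levels, and for 6 of them the libraries of the levels did not overlap and the exact p of 0.00216 was the smallest the test can give (adjusted p = 0.00253). The ratios use the same values as the level comparison, and pairs within a group share genes. They describe its differences on another scale and are not separate support for them.

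In group 8, *Hoxc8* exceeded *Hoxd8* in every brachial library, with log2 ratios of 1.33 to 2.04, and stood below it in every lumbar library, with −2.52 to −1.95. The mean change was −3.97. The *Hoxb8* to *Hoxc8* ratio went from a mean of −3.76 to −0.83, and the *Hoxb8* to *Hoxd8* ratio from −2.03 to −3.08 with overlapping libraries (exact p = 0.00433, adjusted p = 0.00433). In group 6, on the TPM scale, *Hoxc6* exceeded *Hoxb6* and *Hoxa6* in every brachial library and stood below both in every lumbar library. The *Hoxb6* to *Hoxc6* ratio went from −0.92 ± 0.15 (SD, n = 6) to 1.26 ± 0.20, the *Hoxa6* to *Hoxc6* ratio from −0.66 ± 0.24 to 0.60 ± 0.14, and the *Hoxa6* to *Hoxb6* ratio from 0.26 ± 0.29 to −0.67 ± 0.19. On coverage *Hoxc6* stood below both in all 12 libraries, the *Hoxb6* to *Hoxc6* ratio went from 1.06 to 2.56, and the *Hoxa6* to *Hoxc6* ratio went from 1.39 to 1.93, a change of 0.55 instead of 1.25 with overlapping libraries (exact permutation test, adjusted p = 0.00649). In group 7, *Hoxb7* exceeded *Hoxa7* in all 12 libraries and did so by more at lumbar level, with log2 ratios of *Hoxa7* to *Hoxb7* of −1.52 ± 0.36 and −2.20 ± 0.21.

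**Figure D3:**
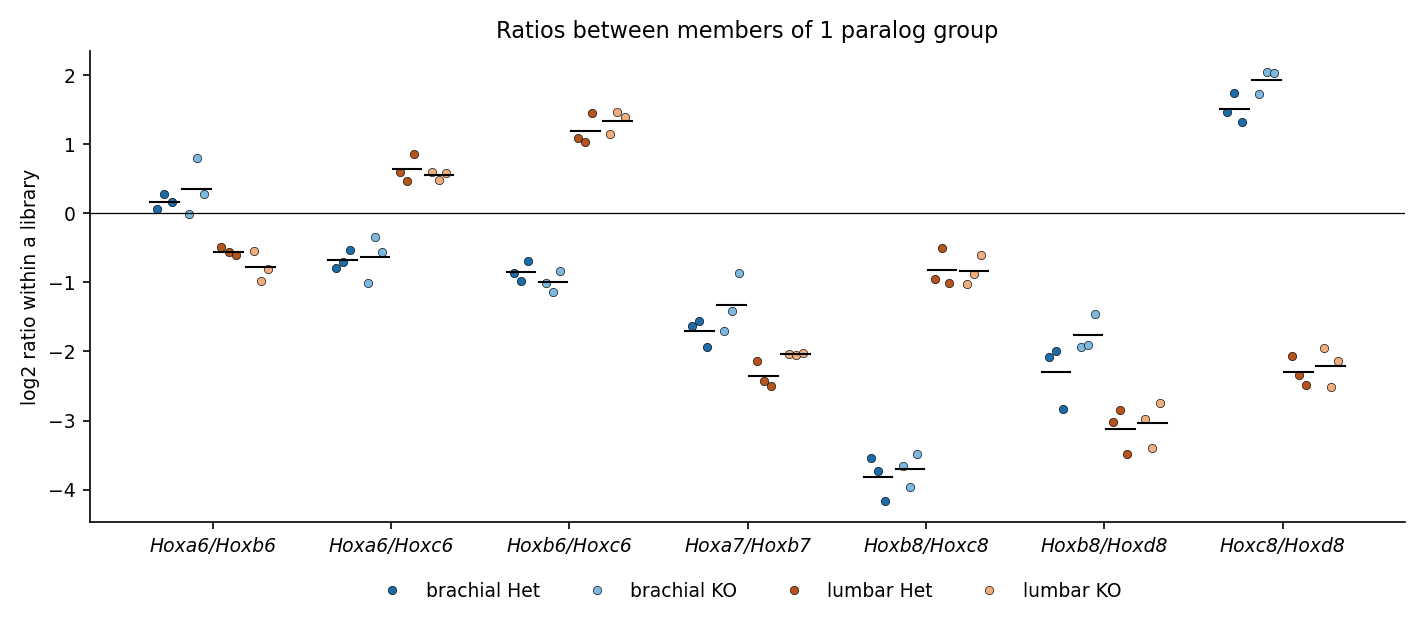
Log2 ratio of 2 genes of the same paralog group within each library, with a point per library and a bar for the mean of each group (n = 3). The *Hoxc8* to *Hoxd8* ratio lies above 0 in the 6 brachial libraries and below 0 in the 6 lumbar ones, and on this TPM scale, though not on coverage, the ratios to *Hoxc6* cross 0 the other way.

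The KO comparison asked whether loss of *Isl2* changed these genes. The study named genes that were lower in KO by an unadjusted p and a size of change, and the same limits were used here in both directions. At neither level did any of the 8 genes pass this threshold, an unadjusted p under 0.05 with a log2 difference beyond 0.5, which 3.08% of 16768 genes passed at brachial and 1.77% of 16620 at lumbar level. The log2 differences of KO against Het ran from −0.30 (*Hoxb7*) to 0.34 (*Hoxb8*) at brachial level and from −0.27 (*Hoxb7*) to 0.29 (*Hoxb6*) at lumbar level. Single libraries moved both brachial extremes. *Hoxb7* was at −0.10 without brachial KO 3 and −0.45 without brachial KO 1, and *Hoxb8* at 0.09 without brachial Het 3, 0.17 without brachial KO 3, and 0.50 without brachial KO 2. The adjusted p was at least 0.357 at brachial and 0.999 at lumbar level. By an unadjusted p under 0.05 alone, 1 gene passed at brachial and 2 at lumbar level, while 13.9% and 4.86% of all genes did.

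*Hoxc8* was the one at brachial level. Its 3 KO libraries, at 159 to 182 TPM, were all above its 3 Het libraries, at 131 to 154 TPM, with a log2 difference of 0.22 ± 0.09 (unadjusted p = 0.0365). At lumbar level *Hoxb6* was at 50.6 to 64.7 TPM in KO against 45.7 to 49.6 TPM in Het, with a log2 difference of 0.29 ± 0.10 (unadjusted p = 0.0188), and *Hoxb7* at 65.1 to 79.3 TPM in KO against 81.3 to 89.7 TPM in Het, with a log2 difference of −0.27 ± 0.09 (unadjusted p = 0.0164). In the fit of all 12 libraries the unadjusted p was 0.0717 for *Hoxc8*, 0.0639 for *Hoxb6*, and 0.0860 for *Hoxb7*. For *Hoxc8* it was also above 0.05 without a trend, with the replicate block (0.0683), and with embryo sex as a term, and for each of the 3 genes it was above 0.05 without some single libraries. Other members fell below 0.05 at brachial level in some settings, *Hoxd8* with the replicate block (log2 −0.20, unadjusted p = 0.0310), and *Hoxa6*, *Hoxb7*, and *Hoxd8* without brachial KO 1 (unadjusted p = 0.0407, 0.0143, and 0.0238). Among all genes, 20.1% had no overlap between genotypes at brachial level (9.67% higher in KO) and 9.94% at lumbar level (4.42% higher and 5.52% lower), beside 1 and 2 of the 8 genes here. The 95% intervals lay within 0.5 of 0 for 6 of the 8 genes at each level. Those of *Hoxb7* (−0.68 to 0.09) and *Hoxb8* (−0.22 to 0.89) at brachial level and of *Hoxb6* (0.06 to 0.51) and *Hoxb8* (−0.35 to 0.58) at lumbar level reached past it, so that for these a change of that size was not excluded.

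The level difference was also compared between genotypes. The difference of the KO effects (lumbar minus brachial) ran from −0.22 ± 0.35 for *Hoxb8* to 0.31 ± 0.20 for *Hoxb6* on the log2 scale, and without brachial KO 2 the *Hoxb6* value was 0.14. None of the 8 genes passed at an adjusted p of 0.05 (lowest unadjusted p 0.111, for *Hoxd8*, at 0.24 and without brachial KO 2 at 0.15), nor did any of the 16698 genes tested in limma (0%), 738 of which had an unadjusted p under 0.05.

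**Figure D4:**
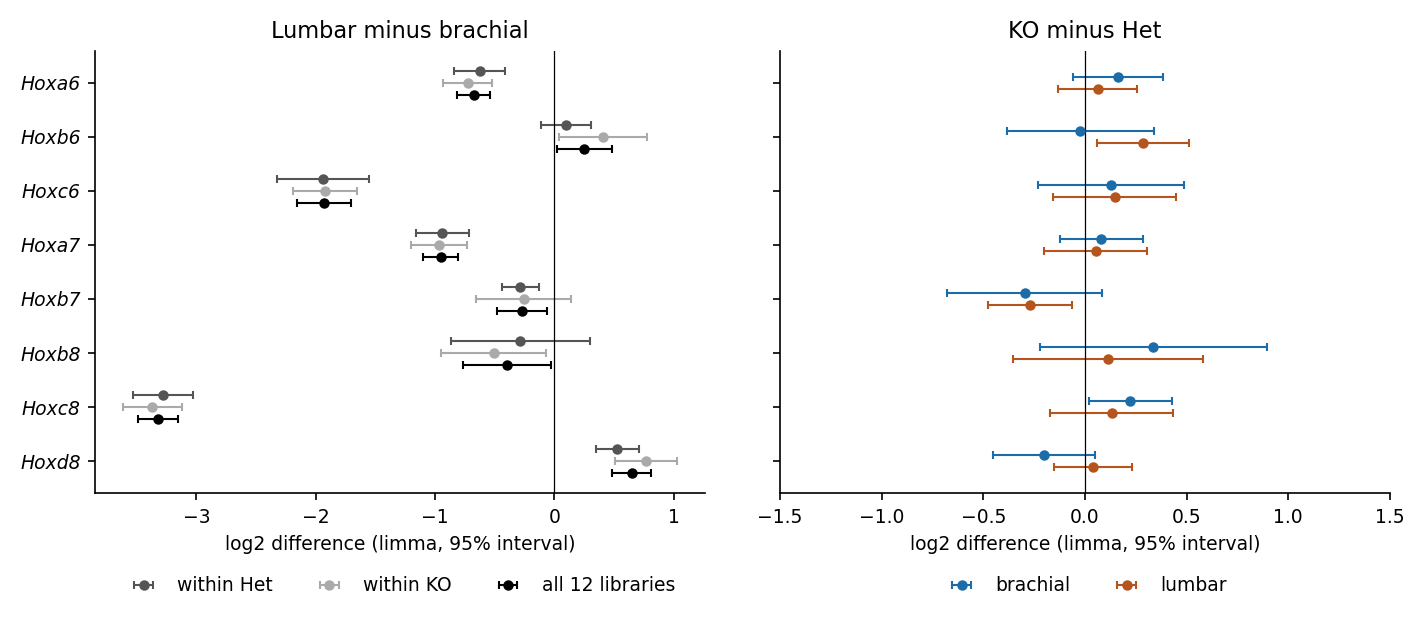
Log2 differences from limma with 95% intervals, on the left lumbar minus brachial (within Het, within KO, and in all 12 libraries) and on the right KO minus Het at each level. On the left *Hoxc8* sits near −3.32 and *Hoxc6* near −1.93 in each fit, and on the right the estimates lie between −0.30 and 0.34.

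The members sit in a wider pattern of *Hox* expression along the cord. Of the other 31 *Hox* genes 24 were tested, and 11 were higher and 5 lower at lumbar level, beside 8.91% higher and 9.62% lower of all genes tested. In groups 1 to 5, 14 of 15 were tested, with 3 higher and 5 lower. The lower ones of smallest p were *Hoxc4* (49.0 TPM at brachial and 22.7 at lumbar level, log2 −1.11), *Hoxc5* (36.2 and 11.6 TPM, log2 −1.65), and *Hoxa5* (69.6 and 33.4 TPM, log2 −1.06). In HoxC, on the TPM scale, the log2 differences thus ran from −1.11 for *Hoxc4* through −1.65 and −1.93 to −3.32 for *Hoxc8*. The place of *Hoxc6* in this series depends on the scale, as on coverage it was at −1.23. The next gene, *Hoxc9*, a thoracic gene, stood at 0.22 (limma, adjusted p = 0.25).

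In groups 9 to 13, 10 of 16 were tested, with 8 higher and 0 lower. Those of smallest p were *Hoxd10*, a gene of lumbar MNs, at 0.00405 TPM in the mean of the brachial and 164 in that of the lumbar libraries, and *Hoxa11* and *Hoxc10*, both listed at 0 in all brachial libraries and at 18.6 and 34.7 TPM in the lumbar mean. In HoxD, *Hoxd8* shared its direction with *Hoxd1*, *Hoxd3*, and *Hoxd4* (log2 0.71, 0.51, and 0.70), which are the other genes of groups 1 to 5 that were higher. Of the HoxB genes tested, from *Hoxb2* to *Hoxb9* with the 3 members among them, 0 of 8 passed in either direction, beside 18.5% of all genes tested.

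**Figure D5:**
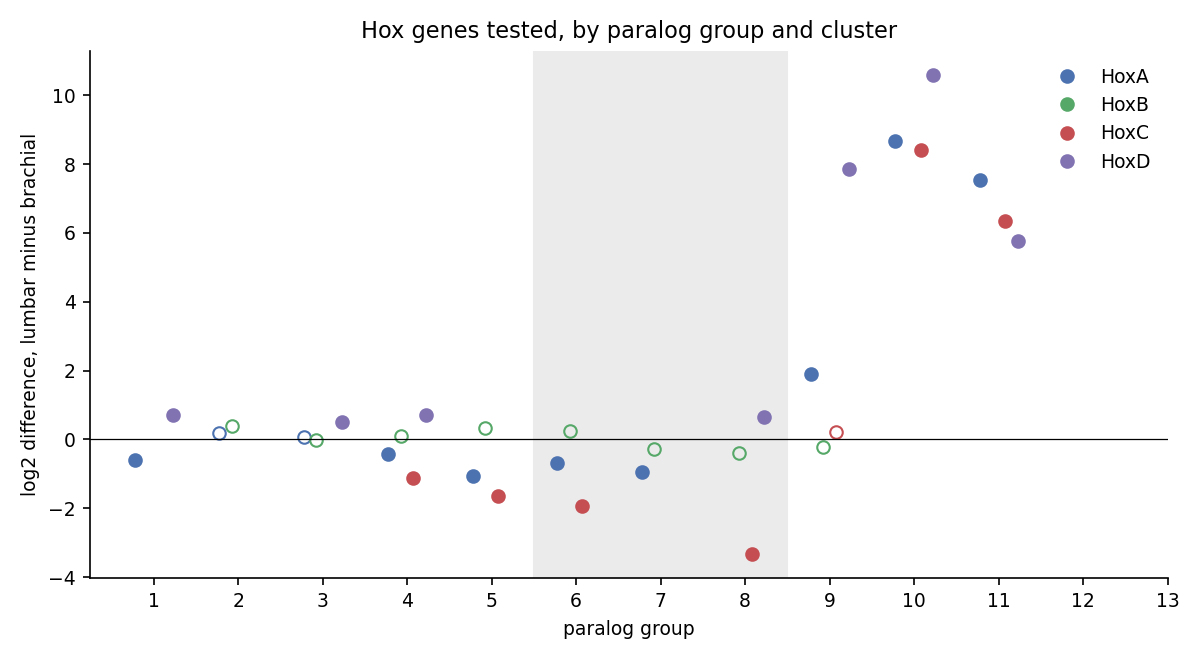
Log2 difference of lumbar against brachial level for the *Hox* genes tested, by paralog group, with colours for clusters and filled points for an adjusted p under 0.05. In the shaded groups 6 to 8, HoxA and HoxC points lie below 0, the HoxD point above 0, and HoxB points are open.

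Other lists of the pathway were compared between levels too, beside the 18.5% of all genes that passed. TALE factors are homeodomain cofactors that bind DNA together with *Hox* proteins, and 2 of 9 were higher at lumbar level, *Meis3* (85.3 ± 6.57 and 112 ± 15.7 TPM, adjusted p = 0.011) and *Pbx2* (44.9 ± 3.86 and 55.6 ± 6.11 TPM, adjusted p = 0.018). Of 12 MN genes known to depend on *Hox* factors or to mark *Hox*-set motor pools, 4 were lower and 0 higher. The 3 of smallest p were *Etv4*, an ETS factor of motor pools (24.5 ± 3.95 and 8.61 ± 3.98 TPM), *Glra2*, a glycine receptor subunit (67.0 ± 8.68 and 47.0 ± 5.41 TPM), and *Sema5a*, an axon guidance gene (7.23 ± 2.44 and 3.98 ± 0.617 TPM). The lumbar mean of *Etv4* pools Het and KO libraries, in which it was at 11.6 ± 3.47 and 5.61 ± 0.822 TPM. Of 18 regulators of *Hox* clusters 14 were tested, and 6 were higher, led by *Rarb*, a retinoic acid receptor (56.7 ± 7.08 and 81.5 ± 9.20 TPM), *Gdf11*, a secreted factor that acts on posterior *Hox* genes (19.2 ± 2.26 and 24.9 ± 2.68 TPM), and *Ring1*, a Polycomb gene (16.5 ± 1.03 and 19.6 ± 1.21 TPM). In the KO comparison 1 of 52 genes tested of these lists and the other *Hox* genes passed the threshold used for KO (3.08% of all genes) at brachial level, *Sema5a* (higher), and at lumbar level 3 of 59 did (1.77% of all genes), *Hoxa3* (higher), *Hoxc11* (lower), and *Etv4* (lower), each with an adjusted p of at least 0.357.

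Some markers of other cells differed between levels too, beside the 18.5% of all genes that passed. Of 9 MN markers, 2 were lower at lumbar level, *Prph* and *Slc5a7*, and the summed level of the 9 was 459 to 530 TPM in brachial and 204 to 343 TPM in lumbar libraries. Without that pair the ranges were 174 to 206 and 158 to 250 TPM and overlapped. Of 6 progenitor markers 3 were higher and 1 lower, with sums of 668 to 844 and 848 to 1109 TPM, and of 6 ventral interneuron markers 3 were higher, with sums of 23.4 to 36.8 and 30.0 to 49.6 TPM. Lower at lumbar level were 1 of 4 markers tested of mesenchyme and cartilage, 2 of 3 of microglia, and 1 of 3 of endothelium, and over all 13 marker lists, with *Isl1* in 2 of them, 16 of 60 tested passed in either direction, or 26.7%. Markers of mesenchyme and cartilage summed to 40.9 to 65.5 and 48.4 to 65.2 TPM, of muscle to 6.88 to 14.6 and 8.42 to 21.9 TPM, of microglia to 9.14 to 15.7 and 4.46 to 10.1 TPM, and of endothelium to 26.9 to 30.8 and 22.2 to 26.0 TPM, without overlap. Of the 3 preganglionic markers 2 were tested, with *Pcp4* lower and *Zeb2* higher, and the sums of 49.2 to 62.4 and 34.4 to 45.1 TPM did not overlap. Of 4 Schwann cell and crest markers tested 1 was lower, *Erbb3*, and the sums of that list overlapped between levels. None of the 23 markers tested of dorsal interneurons, floor plate, sensory ganglion, muscle, and blood passed (limma). The part of cell make-up in the level differences was not tested.

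Of 30 noncoding RNAs of the *Hox* clusters 24 were tested, and 7 were higher and 8 lower at lumbar level, beside 18.5% of all genes in either direction. The higher ones of smallest p were *Hoxa11os* and the loci of 2 microRNAs, *Mir196a-2* (4.67 to 9.07 TPM in lumbar libraries, 0 in 5 of the brachial ones and 0.0789 TPM in the other) and *Mir196a-1* (2.69 to 6.86 TPM in lumbar libraries, 0 in 5 of the brachial ones and 0.0217 TPM in the other). The lower ones were *Mira* (61.1 ± 3.81 and 28.7 ± 1.43 TPM), which lies between *Hoxa6* and *Hoxa7*, *LOC115490409*, and *Hotairm1*. Between genotypes, 2 of 20 tested passed the threshold used for KO at brachial level (3.08% of all genes), *Gm15050* (log2 −0.53) and *Gm36878* (0.78), and 1 of 24, *Gm53* (−1.05), did at lumbar level (1.77% of all genes), each with an adjusted p of at least 0.357. Total RNA libraries of this kind measure the primary transcripts of a microRNA locus and not the mature microRNA. The other locus of the family, *Mir196b*, was at 0 to 0.12 TPM in brachial and 0.115 to 1.19 TPM in lumbar libraries.

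The miR-196 family is encoded inside the HoxA, HoxB, and HoxC clusters and is known for pairing with transcripts of the genes described here, so its mature sequences are shown (from RefSeq, GRCm38.p6, 5′ to 3′) with the seed, bases 2 to 8, in capitals. Both share that seed.
miR-196a-5p (*Mir196a-1*, chr11:96265187-96265208, + strand, and *Mir196a-2*, chr15:102973365-102973386, + strand): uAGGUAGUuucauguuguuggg
miR-196b-5p (*Mir196b*, chr6:52230129-52230150, − strand): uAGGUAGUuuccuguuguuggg

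The letters ACTACCTA, the complement of the seed followed by A, were searched on the sense strand of the longest protein-coding transcript of each gene in GENCODE (GRCm38). They occur in 2.6% of 21877 genes. After the stop codon they occur 4 times in *Hoxa7* and once each in *Hoxb6*, *Hoxb7*, and *Hoxc8*, and not in *Hoxa6*, *Hoxc6*, *Hoxb8*, or *Hoxd8*. The matches that carry the comparison between lower and not lower genes are shown with the matched letters in capitals.
*Hoxc8* (chr15:102993732-102993754, + strand): ataaatctttaacatACTACCTA
*Hoxa7* (chr6:52215400-52215422, − strand): aggcacagccaaaatACTACCTA
*Hoxa7* (chr6:52215210-52215232, − strand): tactactagccctaaACTACCTA
*Hoxb7* (chr11:96289783-96289805, + strand): actgtaaaaaaatatACTACCTA
*Hoxb6* (chr11:96301372-96301394, + strand): ctggaaggagcacatACTACCTA

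*Hoxb8* has instead a window that matches 21 of the 22 bases of the full complement of miR-196a-5p, shown with matching bases in capitals.
*Hoxb8* (chr11:96284888-96284909, + strand): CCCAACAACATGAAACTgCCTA
Genes with such letters were thus found among those that were lower (*Hoxc8* and *Hoxa7*) and those that did not pass (*Hoxb6*, *Hoxb7*, and *Hoxb8*), while *Hoxc6* and *Hoxa6*, which were lower, had none after the stop codon. The matches are a description of letters, and whether the microRNAs act on these transcripts was not tested. The 4 matches in *Hoxa7* lie past the end of the *Hoxa7* span in the tables (chr6:52215623-52218573), and the second shown lies within *Mira* (chr6:52214491-52215288), on the same strand.

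Windows of 250 bases upstream of a transcription start were matched for 4 of the 8 genes (RefSeq, GRCm38.p6). They were searched on both strands for TTTATG, a core motif of the CDX factors known to switch on middle *Hox* genes, and for TGATNNAT, a motif of *Hox* proteins paired with Pbx. The CDX motif is found in 10.8% of 32851 windows of that length and the Hox-Pbx motif in 7.68%. *Hoxa7* and *Hoxb8* each hold the CDX motif at 2 positions, and *Hoxa6* and *Hoxd8* hold none. The window of *Hoxb8* alone of the 4 holds the Hox-Pbx motif. Shown are the windows of a gene that was lower, one that did not pass, and the one that was higher, with TTTATG or its reverse complement in capitals.
*Hoxa7* (chr6:52218574-52218823, − strand): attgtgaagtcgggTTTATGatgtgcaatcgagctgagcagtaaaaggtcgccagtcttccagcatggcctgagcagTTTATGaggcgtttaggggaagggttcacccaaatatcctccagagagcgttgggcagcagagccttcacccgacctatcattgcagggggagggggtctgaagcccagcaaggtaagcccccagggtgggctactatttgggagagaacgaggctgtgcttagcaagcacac
*Hoxb8* (chr11:96281655-96281904, + strand): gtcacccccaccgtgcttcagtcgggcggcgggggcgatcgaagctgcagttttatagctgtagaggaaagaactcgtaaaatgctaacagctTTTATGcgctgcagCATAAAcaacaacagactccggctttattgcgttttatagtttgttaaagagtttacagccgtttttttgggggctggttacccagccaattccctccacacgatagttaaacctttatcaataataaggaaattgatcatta
*Hoxd8* (chr2:74704365-74704614, + strand): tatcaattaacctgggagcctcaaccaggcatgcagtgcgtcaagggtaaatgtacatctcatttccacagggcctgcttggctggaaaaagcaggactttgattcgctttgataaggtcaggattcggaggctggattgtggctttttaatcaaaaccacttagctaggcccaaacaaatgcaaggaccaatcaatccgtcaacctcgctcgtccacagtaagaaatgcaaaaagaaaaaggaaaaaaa
The window of *Hoxb8* lies upstream of the start of its RefSeq curated transcript, within a longer *Hoxb8* span in the tables (chr11:96279401-96285325). *Cdx1* and *Cdx4* were listed at 0 in all 12 libraries and *Cdx2* reached at most 0.0813 TPM, so that none reached the filter of a mean of 0.5 TPM.

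Some transcripts overlap the members, and how the authors' counting used strand is not given in the sources used here. *Hoxb6* (chr11:96292814-96301569) lies within the span of the antisense *Hoxb5os*, which was at 88.7 TPM at brachial and 55.8 at lumbar level (log2 −0.67, adjusted p = 0.00641), the opposite direction to the *Hoxb6* value. *Hoxd8* (chr2:74704615-74707933) lies within the antisense *Gm38462*, at 14.9 and 44.0 TPM (log2 1.57, adjusted p = 1.72e-06), the same direction as *Hoxd8*. *Hoxa6* (chr6:52204858-52208672) lies within *Hoxa3* on the same strand (10.3 and 10.4 TPM) and the antisense *Hoxaas3* (7.08 and 5.33 TPM, adjusted p = 0.0509). For these 3 members, reads of the overlapping genes may not be told apart. The spans in the tables of *Hoxc6* (chr15:102998226-103011882), *Hoxb7* (chr11:96285604-96290163), *Hoxc8* (chr15:102990539-102994275), *Hoxa7*, and *Hoxb8* overlap no other gene listed there, while the longer GENCODE transcript of *Hoxa7* reaches into *Mira*.

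For each member, the gene outside the set whose log2 level followed it most closely over the 12 libraries was looked up, as a description over points that share libraries and the level difference. *Hoxc8* and *Hoxc6* were both closest to *Mira* of the HoxA cluster (Pearson's r = 0.992 and 0.983), and *Hoxa6* to its cluster neighbour *Hoxa5* (r = 0.968). *Hoxa7* was closest to *Flt1*, a VEGF receptor gene (r = 0.984), and *Hoxd8* to *Pclaf*, a gene of DNA replication (18.8 TPM at brachial and 39.8 at lumbar level, r = 0.983). *Hoxb7* was closest to *Hexa*, a lysosomal enzyme gene (r = 0.958), *Hoxb6* to *BC031361* (r = 0.949), and *Hoxb8* to *Pcdha6*, a protocadherin gene (r = 0.919). With the means of the 4 groups taken out, the pair of highest correlation among the members was *Hoxa6* with *Hoxa7* (r = 0.795 over 12 libraries). *Hoxa7* with *Hoxc8*, of different clusters, was almost level with that pair (r = 0.793), and *Hoxa6* with *Hoxd8* had the lowest (r = −0.63).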

How the data were processed

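The 12 libraries were stranded total RNA, depleted of ribosomal RNA. Per the methods and the labels, Trimmomatic (0.38) served for trimming, HISAT2 (2.1.0) and Bowtie2 (2.3.4.1) for mapping to mm10, and StringTie (2.1.3b) for abundances, library by library. The deposited TPM values were scaled by the authors to the same total in each library, the deposited FPKM values to gene length and mapped fragments, and the deposited coverage is the mean depth per base of a gene. No counts are in the tables, so DESeq2, which the authors ran, could not be repeated, and no counting interval is given. Aligned bases per library follow from dividing coverage by FPKM.

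Of 45777 identifiers, 45679 had a symbol in RefSeq (GRCm38.p6), and 5 on several lines were summed. As 5 small RNAs took 23.7 to 38.2% of TPM in a library, size factors from medians of ratios were used to rescale TPM. Genes whose mean reached 0.5 TPM entered linear models as log2(TPM + 0.1), fitted by limma (3.58.1, under R 4.3.3) with moderated variances that follow mean expression. The pseudocount of 0.1 understates changes of low genes. The fit was tested on simulated data. KO was compared with Het within each level, in 3 libraries against 3, where an exact test on 1 gene could not go below p = 0.1.

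Groups and replicate numbers came from the labels, which do not say whether libraries are separate embryos (the methods name 3 animals per genotype), so p-values measure the spread between these libraries. Besides the 8 members, the text names for each member the gene that is no member of highest Pearson correlation over the 12 libraries, up to 3 genes of smallest p per direction in each list, overlapping genes, and *Isl2*. Genes of the lists that passed in the KO comparison, *Hoxc9*, *Hoxd1*, *Hoxd3*, *Mir196b*, and the marker genes were named after their values were seen. The members and lists were chosen with earlier results of these data known. Tables and plots were made with Python 3.11.15, pandas 2.3.3, and matplotlib 3.10.9.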

Additional observations from a re-analysis of the deposited data

How the results depend on the processing

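The count of 5 members that differed between levels stood at 5 to 7 under every alternative (pseudocounts of 0.01 and 1, no filter or a mean TPM of at least 1, values as deposited, quantile normalization, coverage, protein-coding genes only, no trend, replicate block, embryo sex as a term, both Het libraries numbered 3 left out, and each library left out in turn, 5 to 6), and *Hoxa6*, *Hoxc6*, *Hoxa7*, *Hoxc8*, and *Hoxd8* were among the calls each time. *Hoxb7* was called too with values as deposited (log2 −0.41, or −0.29 relative to the median of all genes) and quantile normalization (−0.31). Within 1 genotype the 5 calls became 3 without a trend in Het and in KO, 3 with coverage in KO, and 3 in Het with both libraries numbered 3 left out, an alternative added after seeing the data, as was embryo sex. Over all genes the calls in these fits were 282, 59, 64, and 63. The count of members became 6 in Het with quantile normalization and with protein-coding genes only, and 4 in KO with no filter. Leaving out single libraries gave 3 to 5 in Het and 2 to 5 in KO, while the calls over all genes ran from 86 to 352 and from 28 to 655. With all libraries these were 488 of 16620 and 298 of 16789 genes. The cause of these shifts was not tested. The count of 7 ratios past the threshold, and the counts of 0 for KO at either level and for the interaction, held in each alternative run. With coverage in place of TPM, *Hoxc6* moved from −1.93 to −1.23 between levels, and the *Hoxa6* to *Hoxc6* ratio change from 1.25 to 0.55, with overlapping libraries.

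Values as deposited moved the median of all genes to −0.13 between levels and 0.16 for KO at brachial level, and changes are read relative to that. Of KO differences, none of them called, *Hoxb6* at brachial level was at 0.15 with values as deposited. Relative to the median of all genes it was at −0.0069, the same sign as in the main fit (−0.022). It changed sign with quantile normalization (0.0013), and *Hoxb8* at lumbar level did with embryo sex as a term (−0.028). With each library left out in turn, the sign changed within the ranges of *Hoxb6* (−0.14 to 0.15) and *Hoxc6* (−0.020 to 0.23) at brachial level and of *Hoxc6* (−0.0085 to 0.24), *Hoxa7* (−0.031 to 0.13), *Hoxb8* (−0.082 to 0.29), and *Hoxd8* (−0.030 to 0.082) at lumbar level.

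Replicate numbers did not pair the libraries. Deviations of same-numbered Het and KO libraries correlated at −0.21 to 0.23, those of same-numbered brachial and lumbar libraries at −0.21 to 0.34, and 3 of the 6 same-numbered brachial and lumbar pairs differed in sex by their Y-linked genes. With the replicate block, 7 members were called between levels (also *Hoxb7*, log2 −0.27, and *Hoxb8*, −0.40), 5 within Het, and 3 within KO, and the KO counts and the interaction stayed at 0. Over all genes, 2327 of 16698 were called between levels, 513 of 16620 within Het, and 49 of 16789 within KO in these fits.

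Depth per gene is known only as coverage.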
